A study of Mus musculus with 6 samples.

Results

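Retinal and proneural transcription factors were measured in cultured mouse retinal ganglion cells (RGCs), the output neurons of the eye whose axons form the optic nerve. The set held 56 genes, chosen by mouse symbol from families known in retinal and neuronal development, out of 43346 Ensembl genes in the tables. The choice was made with earlier results of these data known. RGCs had been isolated from C57BL/6 mice of both sexes by immunopanning for CD90.1 and plated at 250000 cells per well. The sources used here give the age of the animals as embryonic day 18 and, in another place, as postnatal day 2, and the names of the tables hold postnatal day 0. Adeno-associated virus (AAV) was added 4 h after plating at 100000 vector genomes per cell, and RNA was taken 72 h after plating.

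There were 3 groups of 2 libraries each. The control group received an AAV for EGFP alone. The Sox11 group received an AAV for wild-type Sox11 followed by an IRES and EGFP, and the Sox11K91A group received the same with lysine 91 of Sox11 replaced by alanine, a site to which the small protein SUMO can be attached. Every group therefore carried AAV and EGFP, and all were cultured in medium with forskolin, BDNF and CNTF. The promoter of the viruses is not given in the sources used here. By the study's methods, 3 RNA samples were sequenced in duplicate, which leaves unclear whether the 2 libraries of a group came from separate cell preparations, so p-values measure the spread between these libraries, which may be technical.

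Sox11 is a member of the SoxC family of high mobility group transcription factors, which act in neurons as they leave the cell cycle and mature. In the developing retina, bHLH proteins such as Neurog2 and the Neurod family push progenitors into a neuronal fate. Eye field factors such as Pax6, Six3 and Rax specify the tissue. Factors such as Ptf1a, Prox1, the Onecut proteins, Tfap2a and Tfap2b act in amacrine and horizontal cells. Zinc finger proteins of the Insm and Myt families act further on, as newborn neurons repress progenitor and non-neuronal genes.

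The libraries held between 27521981 and 37061718 expected counts. *Sox11* stood at 234 and 332 CPM (counts scaled by library size) with control virus, at 9178 and 14591 with Sox11 virus and at 11971 and 7026 with Sox11K91A virus, so both viruses raised their own transcript and each group had 1 library with more of it. All 10 RGC markers were detected in every group, and their summed level was 12390 to 12400 TPM (transcript abundance scaled by gene length and library size) in control libraries, 8312 to 10500 with Sox11 and 9306 to 10670 with Sox11K91A. Of these 10 markers, *Slc17a6*, *Nefl* and *Thy1* were called lower with Sox11 and *Slc17a6* with Sox11K91A. In bulk RNA, fewer cells of a type and less RNA per cell cannot be told apart. Control replicate 2 and Sox11 replicate 2 were set off from the remaining 4 by a second axis of a principal component analysis, with 18.2% of the variance. Both had lower *Xist* than the other libraries, with 95.9 CPM against 400.4 in the other control library and 254 CPM against 526 in the other Sox11 library. Values without them are given for members that rest on them.

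Expression of a gene was compared between libraries as CPM and between genes as TPM, which accounts for gene length. Changes were tested with limma-voom in a single fit of all 6 libraries over the 15747 genes with enough counts, and a gene was called where its Benjamini-Hochberg FDR was below 0.05 and it changed by more than 1.2-fold in either direction. Of the 56 factors, 45 passed the filter on low counts. The other 11 were *Neurog1*, *Neurod6*, *Nhlh1*, *Ptf1a*, *Foxn4*, *Tfap2c*, *Otx2*, *Vsx1*, *Lhx9*, *Vax1* and *Dlx1*. *Neurog1*, *Foxn4* and *Vsx1* had 0 counts in all 6 libraries, *Neurod6* had at most 1 and *Vax1* at most 2, so these 5 were not detected above a floor of 3 counts, which was 0.0778 to 0.109 CPM depending on the library. The highest count of any library was 4 for *Ptf1a*, 6 for *Otx2* and *Dlx1*, 12 for *Nhlh1*, 13 for *Lhx9* and 15 for *Tfap2c*. A low count limits only what could be detected at this depth.

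The most abundant factors per gene length were 2 of the eye field. *Pax6*, the paired-box factor of eye specification, averaged 447 TPM over the 6 libraries and *Six3* 343 TPM, well above the next, the ventral retinal factor *Vax2*, at 99.2 TPM. *Myt1l* followed with 63.0 TPM, *Barhl2* with 46.0 TPM, *Tbx2* with 43.0 TPM, *Myt1* with 42.3 TPM and *Insm1* with 39.6 TPM.

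**Figure D1:**
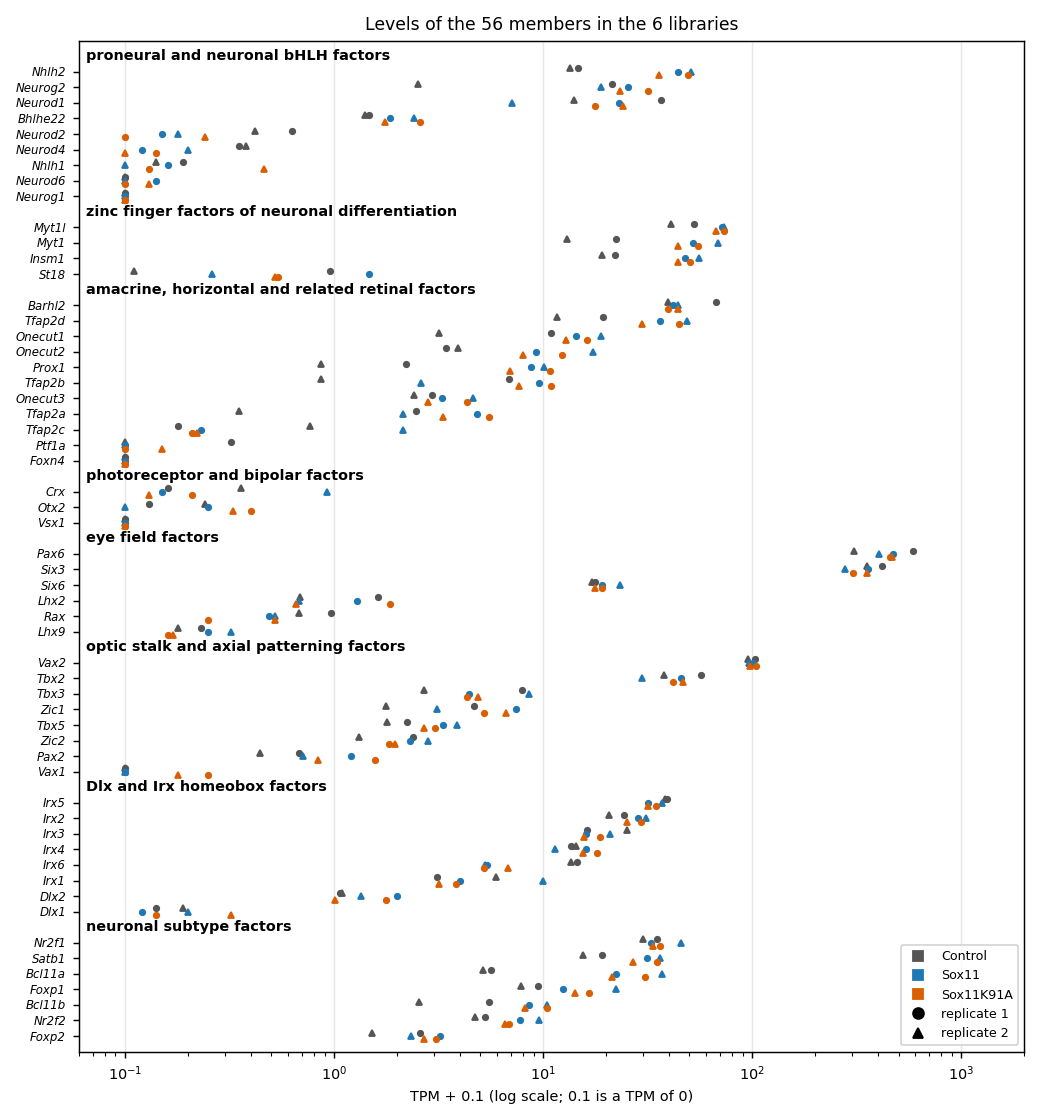
Level of each of the 56 factors in the 6 libraries, as TPM with 0.1 added on a log axis, by group (color) and replicate (shape), and sorted by mean level within role groups. *Pax6* and *Six3* are the highest, and 5 factors had at most 3 counts in every library.

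With Sox11 virus, 11 of the 45 tested factors were called (24.4%), of which 10 rose and 1 fell. The background is close to this, since 20.1% of all genes tested were called, but the direction differed: 22.2% of the factors were called higher, against 9.96% of all genes, and 2.22% were called lower, against 10.2% of all genes. With Sox11K91A virus, 10 factors were called (22.2%), 9 higher and 1 lower, where 10.6% of all genes were called, 5.81% higher and 4.81% lower. The 10 were among the 11 called with Sox11, and *Myt1l* was called by limma-voom with Sox11 and not with Sox11K91A, at equal log2 fold changes, while 4 of the 22 alternatives, DESeq2 among them, called it with Sox11K91A. Both comparisons share the same control libraries. Because the factors were chosen with earlier results of these data known, their skew to rises describes the list. Whether that choice shaped the skew was not tested. The groups did not overlap in 27 of the 45 factors with Sox11 (19 higher, 8 lower), where this held for 61.5% of all genes tested (30.9% higher, 30.6% lower). With Sox11K91A they did not overlap in 30 (23 higher, 7 lower), against 61.9% of all genes (31.2% higher, 30.7% lower). The median log2 fold change of the 45 factors was 0.50 with Sox11 and 0.36 with Sox11K91A, where the median over all genes tested was 0.01 and 0.02. Between the viruses, limma-voom called no factor, and none of the 15747 genes either (0%), with 108 genes at an unadjusted p under 0.05. The edgeR quasi-likelihood test called 0 genes and DESeq2 called 2.

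**Figure D2:**
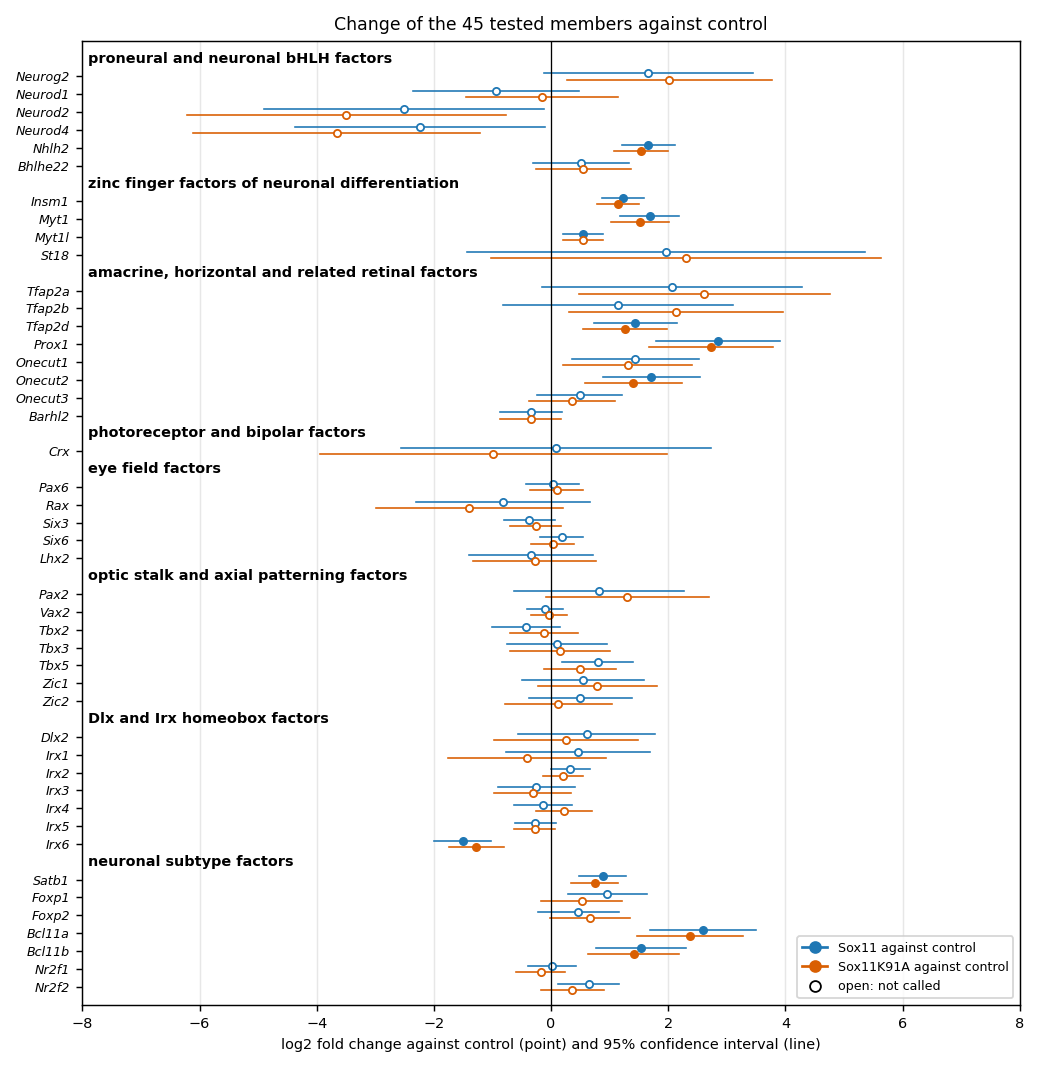
Log2 fold change against control of the 45 tested factors with Sox11 (blue) and Sox11K91A (orange), with 95% confidence intervals. Filled points were called, open points were not. The 10 factors that rose with Sox11 come from 4 groups: bHLH, zinc finger, amacrine, horizontal and related retinal, and subtype factors. *Irx6* is the single one that fell.

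Among the proneural and neuronal bHLH factors, 1 of the 6 tested was called. *Nhlh2*, a bHLH factor of postmitotic neurons also named NSCL2, lies on chromosome 3 (GRCm38, 102010076 to 102015492, plus strand). It stood at 23.3 CPM in both control libraries, at 69.0 and 78.8 with Sox11 and at 78.5 and 57.7 with Sox11K91A. All 4 libraries with Sox11 or Sox11K91A were above both controls. *Nhlh2* rose 3.17-fold with Sox11 (log2 fold change 1.66 ± 0.19 SE, limma-voom adjusted p = 0.011) and 2.89-fold with Sox11K91A (1.53 ± 0.19, limma-voom adjusted p = 0.015). It had the highest mean TPM of its group.

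Limma-voom called no other bHLH factor in the full data. *Neurog2*, a proneural determination factor, stood at 21.8 and 2.70 CPM in control, 25.5 and 18.7 with Sox11 and 32.3 and 23.8 with Sox11K91A (log2 fold changes 1.66 and 2.02, limma-voom adjusted p = 0.16 and 0.12). The low value of control replicate 2 set the size of that difference: without this library and Sox11 replicate 2, the log2 fold changes were 0.23 and 0.36. *Neurod2* and *Neurod4*, differentiation factors that follow the determination factors, were near the floor. *Neurod2* had 22 and 20 counts in control, 2 and 4 with Sox11 and 0 and 6 with Sox11K91A. *Neurod4* had 11 and 19, 1 and 5, and 2 and 0 counts. For both genes every library with Sox11 or Sox11K91A was below both controls, yet neither was called (limma-voom adjusted p = 0.12 and 0.095 for *Neurod2*, 0.12 and 0.067 for *Neurod4*). *Neurod1*, which acts in amacrine cells and photoreceptors, ranged from 8.69 to 46.3 CPM over the 6 libraries, and its groups overlapped (log2 fold changes -0.94 and -0.16, limma-voom adjusted p = 0.29 and 0.88). Without control replicate 2 and Sox11 replicate 2, the log2 fold changes of *Neurod1* were -0.68 and -0.82, called lower with Sox11K91A (limma-voom adjusted p = 0.12 and 0.040), and with a block for these libraries it was called lower with both viruses (limma-voom adjusted p = 0.026 and 0.040). *Bhlhe22* ranged from 2.18 to 3.94 CPM.

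Of the 4 zinc finger factors of neuronal differentiation, 3 were called with Sox11 and 2 with Sox11K91A. Of all genes tested, 20.1% and 10.6% were called. A group of 4 genes, drawn up with earlier results known, is too small to rank against other groups by its share. *Insm1*, a repressor expressed as progenitors become neurons, lies on chromosome 2 (146221921 to 146225020, plus strand). It stood at 32.1 and 30.6 CPM in control, 68.4 and 79.0 with Sox11 and 73.8 and 65.2 with Sox11K91A. Each of the 4 libraries with Sox11 or Sox11K91A was more than 2-fold above both controls. *Insm1* rose 2.35-fold with Sox11 (log2 fold change 1.23 ± 0.15 SE, limma-voom adjusted p = 0.011) and 2.22-fold with Sox11K91A (1.15 ± 0.15, limma-voom adjusted p = 0.016).

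*Myt1* and *Myt1l* encode related zinc finger proteins, of which the second keeps non-neuronal programs off in neurons. *Myt1*, on chromosome 2 (181763332 to 181827797, plus strand), stood at 39.6 and 30.4 CPM in control, 96.2 and 127 with Sox11 and 109 and 89.2 with Sox11K91A. It rose 3.21-fold with Sox11 (log2 fold change 1.68 ± 0.21 SE, limma-voom adjusted p = 0.011) and 2.86-fold with Sox11K91A (1.51 ± 0.21, limma-voom adjusted p = 0.018). No library with either form fell into the control range. *Myt1l*, on chromosome 12 (29528384 to 29923213, plus strand), was higher in control at 185 and 158 CPM and stood at 247 and 250 with Sox11 and 259 and 240 with Sox11K91A. It rose 1.45-fold with Sox11 (log2 fold change 0.54 ± 0.14 SE, limma-voom adjusted p = 0.042). With Sox11K91A the log2 fold change was 0.54 too, with an adjusted p of 0.057 by limma-voom, and the difference between the viruses was 0.00 (95% confidence interval -0.34 to 0.35). *St18*, the third member of the Myt family, was near the floor with 16 and 1 counts in control, 36 and 7 with Sox11 and 29 and 13 with Sox11K91A (log2 fold changes 1.96 and 2.30, limma-voom adjusted p = 0.36 and 0.32). The log2 fold changes of *St18* were 1.17 and 0.16 without control replicate 2 and Sox11 replicate 2.

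**Figure D3:**
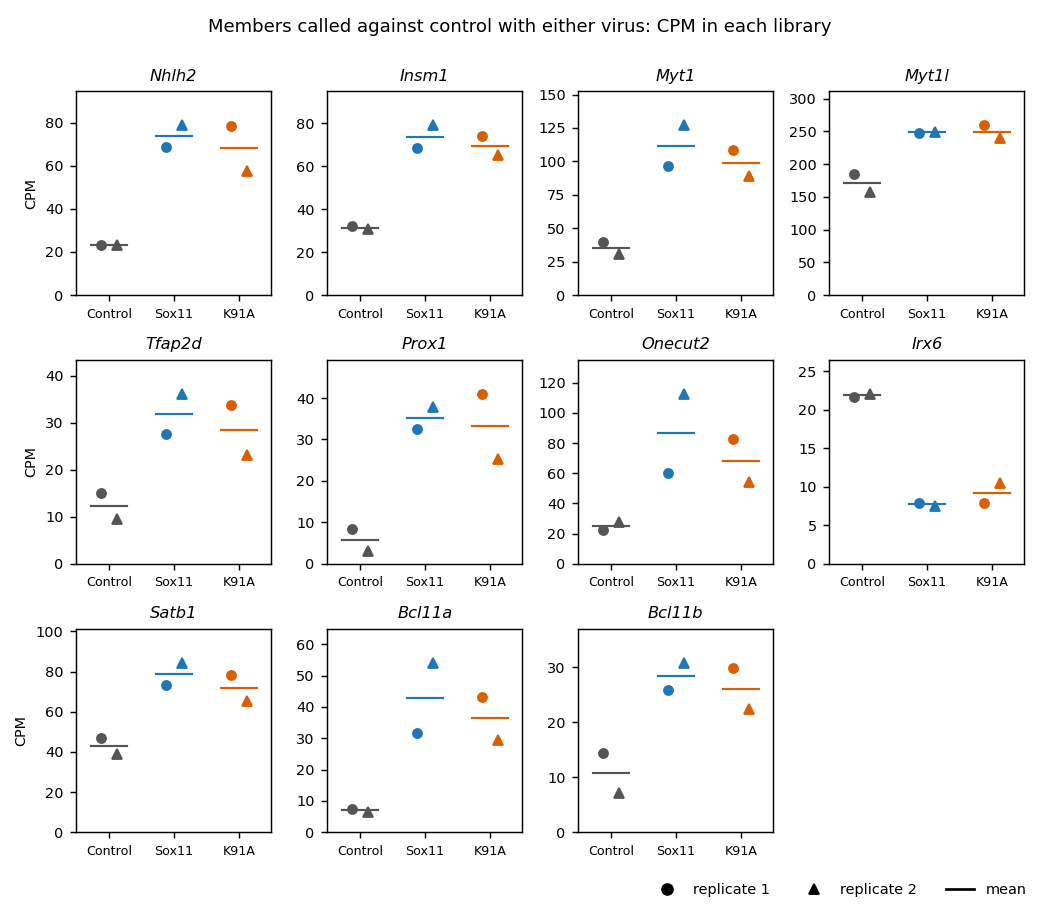
CPM of the 11 called factors in each library (circles for replicate 1, triangles for replicate 2) with the mean of each group as a line. In 10 panels the 4 libraries with Sox11 or Sox11K91A lie above both controls, and in the panel of *Irx6* they lie below.

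Of the factors of amacrine and horizontal cells and related retinal factors, 8 of 11 were tested. With each virus 3 were called higher (37.5%), where 9.96% of all genes were called higher with Sox11 and 5.81% with Sox11K91A. A group this small, drawn up with earlier results known, cannot be ranked by its share. *Prox1*, a homeobox factor of horizontal and amacrine cells, gave the largest fold of all called members. It lies on chromosome 1 (190118035 to 190170714, minus strand) and stood at 8.27 and 3.17 CPM in control, 32.6 and 37.8 with Sox11 and 41.0 and 25.4 with Sox11K91A. *Prox1* rose 7.23-fold with Sox11 (log2 fold change 2.85 ± 0.45 SE, limma-voom adjusted p = 0.013) and 6.65-fold with Sox11K91A (2.73 ± 0.45, limma-voom adjusted p = 0.021). Without control replicate 2 and Sox11 replicate 2 together, the log2 fold change was 1.98 with Sox11, with an adjusted p of 0.056 by limma-voom, and 1.97 with Sox11K91A, with an adjusted p of 0.031.

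*Onecut2*, on chromosome 18, encodes a cut homeobox factor of horizontal cells and RGCs. It stood at 22.3 and 28.0 CPM in control, 60.2 and 113 with Sox11 and 82.4 and 53.9 with Sox11K91A. The spread within the Sox11 group was wide, at 86.4 ± 37.0 CPM (SD, n = 2), but both values were above the controls. *Onecut2* rose 3.27-fold with Sox11 (log2 fold change 1.71 ± 0.35 SE, limma-voom adjusted p = 0.022) and 2.65-fold with Sox11K91A (1.41 ± 0.35, limma-voom adjusted p = 0.049). The second call lay at the threshold and was lost with DESeq2 size factors or library size alone (limma-voom adjusted p = 0.051 in each). Of the 22 alternatives, 17 called *Onecut2* with Sox11 and 13 with Sox11K91A. Its paralog *Onecut1* stood at 20.3 and 6.41 CPM in control, 25.0 and 33.5 with Sox11 and 30.1 and 23.4 with Sox11K91A. *Onecut1* did not pass (log2 fold changes 1.44 and 1.31, limma-voom adjusted p = 0.067 and 0.11), and 52.8% of its exonic bases are shared with *Gm20649* on the same strand, so its counts are uncertain. Its log2 fold changes were 0.30 and 0.39 without control replicate 2 and Sox11 replicate 2. *Onecut3* ranged from 5.89 to 10.2 CPM over the 6 libraries and was not called.

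Of the Tfap2 family, which was placed in this group as a whole, limma-voom called *Tfap2d* in the full data. It lies on chromosome 1 (19103022 to 19166346, plus strand), and stood at 15.1 and 9.52 CPM in control, 27.6 and 36.1 with Sox11 and 33.7 and 23.2 with Sox11K91A. All libraries with Sox11 or Sox11K91A were above the controls. *Tfap2d* rose 2.71-fold with Sox11 (log2 fold change 1.44 ± 0.30 SE, limma-voom adjusted p = 0.023) and 2.40-fold with Sox11K91A (1.26 ± 0.30, limma-voom adjusted p = 0.045). Its log2 fold changes were 0.87 and 0.90 without control replicate 2 and Sox11 replicate 2. *Tfap2a* stood at 3.22 and 0.363 CPM in control, 6.51 and 2.65 with Sox11 and 7.60 and 4.60 with Sox11K91A (log2 fold changes 2.06 and 2.62, limma-voom adjusted p = 0.15 and 0.11). *Tfap2b* stood at 11.0 and 2.41 CPM, 20.7 and 5.79, and 25.8 and 16.7 (log2 fold changes 1.15 and 2.13, limma-voom adjusted p = 0.35 and 0.12). Both genes were lowest in control replicate 2 and, among libraries with Sox11 or Sox11K91A, in Sox11 replicate 2. Without these libraries the log2 fold changes were 1.01 and 0.88 for *Tfap2a* and 0.91 and 0.92 for *Tfap2b*. *Tfap2b* was called higher with Sox11 under a block for these libraries (log2 fold change 1.02, limma-voom adjusted p = 0.041) and with Sox11K91A under a replicate block (1.80, limma-voom adjusted p = 0.034). *Barhl2*, a homeobox factor of amacrine cells and RGCs with the highest mean TPM of the group, stood at 71.7 and 45.6 CPM in control, 43.7 and 45.6 with Sox11 and 42.1 and 47.6 with Sox11K91A. Its groups overlapped (limma-voom adjusted p = 0.29 and 0.33). Without control replicate 2 and Sox11 replicate 2 it was called lower with both viruses (log2 fold changes -0.71 and -0.68, limma-voom adjusted p = 0.048 and 0.021).

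Upstream sequence was read for the called members from RefSeq promoter windows on GRCm38.p6, which held 40 of the 56 factors. The letters ACAAAG and ACAATG, forms of the core to which SOX proteins bind, were searched on both strands in the 250 bases before each annotated start. *Myt1*, *Prox1* and *Satb1* had a match among 8 called members with a window (37.5%), as did 5 of 22 tested members that were not called (22.7%), 10 of the 40 members in all (25%) and 28.2% of all genes with a window. The share among the members lay near that of all genes, but a gene with more windows had more chances of a match. The matched windows of *Satb1* overlap, hold the same match and lie wholly within annotated exons. The window of *Myt1* is shown because it holds 2 matches, in capitals as CATTGT, the reverse complement of ACAATG, at positions -149 and -129 from the start. *Prox1*, the member with the largest fold, has its match in a window that runs into an annotated exon, and its window outside exons holds none, nor does that of *Tfap2d*. Absence of these letters says nothing of binding elsewhere. The *Myt1* window is chr2:181763082-181763331 on the plus strand, that of *Prox1* is chr1:190170828-190171077 on the minus strand and that of *Tfap2d* is chr1:19102772-19103021 on the plus strand, each written 5′ to 3′.
Myt1: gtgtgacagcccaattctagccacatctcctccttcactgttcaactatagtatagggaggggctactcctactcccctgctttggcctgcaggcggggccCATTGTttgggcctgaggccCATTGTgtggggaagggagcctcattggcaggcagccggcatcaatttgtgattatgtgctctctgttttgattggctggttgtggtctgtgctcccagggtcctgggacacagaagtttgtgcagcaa
Prox1: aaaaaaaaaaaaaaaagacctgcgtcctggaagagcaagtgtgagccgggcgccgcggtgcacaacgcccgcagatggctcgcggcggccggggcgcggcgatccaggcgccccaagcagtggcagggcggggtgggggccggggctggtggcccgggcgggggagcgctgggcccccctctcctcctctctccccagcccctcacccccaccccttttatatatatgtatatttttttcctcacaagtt
Tfap2d: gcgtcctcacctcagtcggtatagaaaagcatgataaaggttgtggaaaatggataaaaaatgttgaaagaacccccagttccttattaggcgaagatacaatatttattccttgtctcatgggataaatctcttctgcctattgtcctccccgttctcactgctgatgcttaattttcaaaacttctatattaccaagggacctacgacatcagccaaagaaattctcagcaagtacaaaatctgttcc

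Limma-voom called no factor of photoreceptors and bipolar cells. *Crx*, the one member of 3 that could be tested, had 2 and 13 counts in control, 2 and 13 with Sox11 and 5 and 1 with Sox11K91A. These counts are near the floor and the groups overlapped. *Otx2* and *Vsx1* were not tested. Summed markers of photoreceptors were at 1.30 to 3.80 TPM and those of bipolar cells at 2.19 to 22.9 TPM over the 6 libraries, and *Rcvrn* and *Opn1sw* had at most 3 counts in every library.

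Limma-voom called no eye field factor, although *Pax6* and *Six3* were the most abundant of the set. *Pax6* stood at 405 and 291 CPM in control, 374 and 330 with Sox11 and 354 and 384 with Sox11K91A. The libraries with Sox11 or Sox11K91A all lay between the controls. The log2 fold change was 0.03 with Sox11 (95% confidence interval -0.42 to 0.48, limma-voom adjusted p = 0.92) and 0.10 with Sox11K91A (limma-voom adjusted p = 0.77). *Six3* stood at 495 and 453 CPM in control, 421 and 318 with Sox11 and 364 and 427 with Sox11K91A, lower in all 4 libraries but not called (limma-voom adjusted p = 0.18 and 0.38). *Six6* ranged from 33.9 to 43.5 CPM. *Rax*, an early eye field gene, was low with 18 counts in both control libraries, 8 and 10 with Sox11 and 4 and 9 with Sox11K91A, and was not called (limma-voom adjusted p = 0.21 with Sox11K91A). *Lhx2* ranged from 0.754 to 1.18 CPM.

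Limma-voom called no factor of the optic stalk and of retinal patterning either, and DESeq2 called *Tbx5* higher with Sox11. *Vax2*, which marks the ventral retina, stood at 53.2 and 53.5 CPM in control, 51.2 and 48.1 with Sox11 and 54.1 and 50.5 with Sox11K91A. Its log2 fold change was -0.11 with Sox11, with a 95% confidence interval of -0.41 to 0.20. *Pax2*, an optic stalk factor, had 23 and 21 counts in control, 44 and 29 with Sox11 and 74 and 33 with Sox11K91A (limma-voom adjusted p = 0.19 with Sox11K91A). Every library with Sox11 or Sox11K91A held more than the controls, at counts that allow little precision. *Tbx5*, a dorsal retinal factor, stood at 4.04 and 3.53 CPM in control, 6.04 and 6.97 with Sox11 and 5.62 and 4.97 with Sox11K91A (limma-voom adjusted p = 0.066 and 0.25). *Tbx2* ranged from 50.0 to 97.9 CPM, *Tbx3* from 6.64 to 14.6 (log2 fold changes 0.10 and 0.15, and -0.55 and -0.48 without control replicate 2 and Sox11 replicate 2), *Zic1* from 4.80 to 13.2 and *Zic2* from 1.50 to 2.99.

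In the Dlx and Irx homeobox group, the single call among 7 tested was a fall. Of all genes tested, 10.2% were called lower with Sox11 and 4.81% with Sox11K91A. *Irx6*, an Iroquois factor expressed in some retinal neurons, lies on chromosome 8 (92674288 to 92680956, plus strand). It stood at 21.7 and 22.1 CPM in control, 7.90 and 7.51 with Sox11 and 7.88 and 10.5 with Sox11K91A. The replicates were close in control and with Sox11 and further apart with Sox11K91A. Every library with Sox11 or Sox11K91A was below the controls. *Irx6* was 2.84-fold lower with Sox11 (log2 fold change -1.51 ± 0.21 SE, limma-voom adjusted p = 0.012) and 2.42-fold lower with Sox11K91A (-1.27 ± 0.20, limma-voom adjusted p = 0.020). Its neighbor in the same gene cluster, *Irx5*, had the highest mean TPM of the group and stood at 43.3 and 46.3 CPM in control, 34.5 and 39.9 with Sox11 and 38.3 and 35.4 with Sox11K91A (log2 fold changes -0.27 and -0.28, limma-voom adjusted p = 0.23 and 0.24). The groups of *Irx5* did not overlap, but the difference was not called. *Irx2*, by contrast, stood at 26.4 and 24.8 CPM in control and at 28.5 to 32.8 in the other 4 libraries (limma-voom adjusted p = 0.14 and 0.37). *Irx1* ranged from 3.29 to 10.6 CPM (log2 fold change with Sox11K91A -0.42, and 0.18 without control replicate 2 and Sox11 replicate 2), *Irx3* from 19.1 to 33.1, *Irx4* from 13.1 to 20.8 and *Dlx2* from 0.892 to 2.15, and limma-voom called none.

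Among the neuronal subtype factors, 3 of 7 were called higher with each virus. Of all genes tested, 9.96% were called higher with Sox11 and 5.81% with Sox11K91A. This group too was drawn up with earlier results known and is too small to rank by its share. *Bcl11a* (also CTIP1), a zinc finger repressor of cortical and sensory neurons, lies on chromosome 11 (24078056 to 24174123, plus strand). It stood at 7.41 and 6.54 CPM in control, 31.8 and 54.1 with Sox11 and 43.2 and 29.5 with Sox11K91A. Even the lowest of the 4 libraries was well above the controls. *Bcl11a* rose 6.04-fold with Sox11 (log2 fold change 2.59 ± 0.38 SE, limma-voom adjusted p = 0.013) and 5.17-fold with Sox11K91A (2.37 ± 0.38, limma-voom adjusted p = 0.021).

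Its paralog *Bcl11b* (also CTIP2), a factor of subcerebral projection neurons, lies on chromosome 12 (107910403 to 108003602, minus strand). It stood at 14.4 and 7.13 CPM in control, 25.9 and 30.8 with Sox11 and 29.9 and 22.4 with Sox11K91A. *Bcl11b* rose 2.90-fold with Sox11 (log2 fold change 1.54 ± 0.33 SE, limma-voom adjusted p = 0.024) and 2.66-fold with Sox11K91A (1.41 ± 0.33, limma-voom adjusted p = 0.042). Without control replicate 2 and Sox11 replicate 2, its log2 fold change was 0.85 with each virus, with adjusted p of 0.099 and 0.057 by limma-voom. *Satb1*, a chromatin organizer that also marks a class of direction-selective RGCs, lies on chromosome 17 (51736187 to 51833290, minus strand). It stood at 47.2 and 39.0 CPM in control, 73.4 and 84.4 with Sox11 and 78.3 and 65.3 with Sox11K91A, and rose 1.84-fold with Sox11 (0.88 ± 0.17 SE, limma-voom adjusted p = 0.020) and 1.67-fold with Sox11K91A (0.74 ± 0.17, limma-voom adjusted p = 0.041). For both genes the groups with and without Sox11 virus did not overlap.

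The other subtype factors were not called by limma-voom in the full data. *Foxp1* stood at 18.6 and 17.1 CPM in control, 25.8 and 45.5 with Sox11 and 27.7 and 23.6 with Sox11K91A, above both controls in all 4 libraries (limma-voom adjusted p = 0.055 and 0.27), and was called higher with Sox11 in 4 of the 22 alternatives, DESeq2 among them. *Nr2f2* stood at 10.3 and 10.4 CPM, 13.5 and 18.8, and 13.9 and 12.7 (limma-voom adjusted p = 0.081 and 0.32), and was called higher with Sox11 without Sox11 replicate 1. *Nr2f1*, an orphan nuclear receptor with the highest mean TPM of the group, stood at 34.4 and 31.2 CPM in control, 28.9 and 37.6 with Sox11 and 30.1 and 27.8 with Sox11K91A (log2 fold changes 0.02 and -0.18). Its Sox11 libraries lay on either side of the controls. *Foxp2* ranged from 4.20 to 8.47 CPM.

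Between the viruses, none of the 45 tested factors was called, and none had an unadjusted p under 0.05 in limma-voom. The groups did not overlap in 5 of the 45, 1 higher and 4 lower with Sox11K91A, where this was so for 26.6% of all genes tested (13.3% higher, 13.4% lower). The median difference of the 45 was -0.12 on the log2 scale, against 0.01 over all genes. The 95% confidence interval of the difference, Sox11K91A against Sox11, was -0.55 to 0.29 for *Nhlh2*, -0.43 to 0.26 for *Insm1* and -0.65 to 0.32 for *Myt1*. For these genes a change as large as their rise over control lay outside the interval. Intervals were wider for the members with a larger spread, at -0.87 to 0.63 for *Prox1*, -0.90 to 0.46 for *Bcl11a*, -1.08 to 0.47 for *Onecut2* and -0.80 to 0.45 for *Tfap2d*. The remaining intervals were -0.79 to 0.54 for *Bcl11b*, -0.54 to 0.26 for *Satb1* and -0.31 to 0.78 for *Irx6*. A missing call does not show that the viruses act alike.

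**Figure D4:**
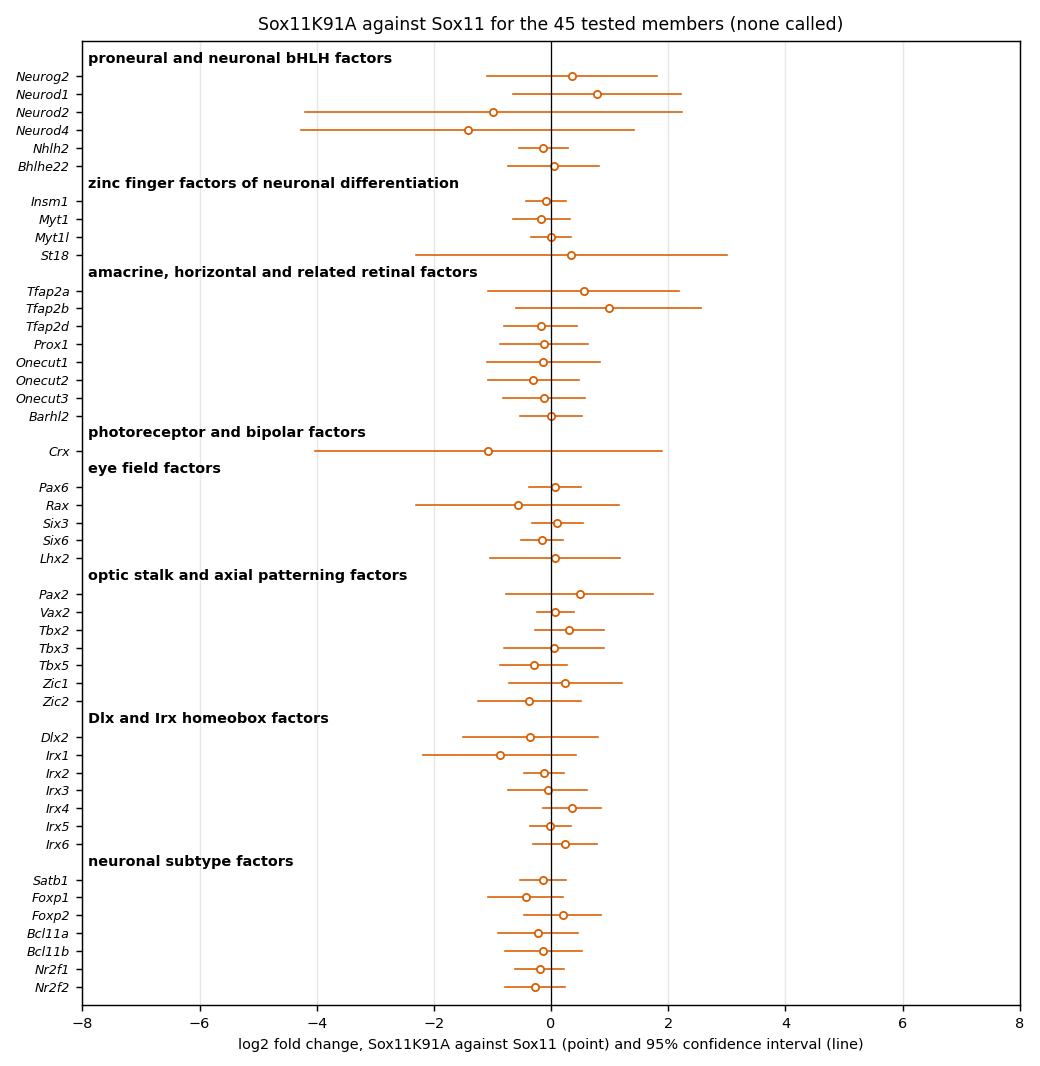
Log2 fold change of Sox11K91A against Sox11 for the 45 tested factors, with 95% confidence intervals. None was called, and the interval of each called member in the text includes 0.

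Within each virus, the called members, though not all members, kept the order of the 2 libraries in *Sox11* transcript. Sox11 replicate 2 had more *Sox11* than replicate 1, and Sox11K91A replicate 1 more than replicate 2. All 10 factors that rose were higher in the library with more *Sox11* for both viruses, and *Irx6* was lower there for both. Only the order was counted, and some differences were small. In the Sox11 libraries *Myt1l* stood at 247 and 250 CPM and *Irx6* at 7.90 and 7.51. The same order was seen for 83.8% of all genes called higher with either virus and for 83.2% of those called lower, so it was not particular to these factors. With 2 libraries a group, the amount of transcript and any other difference between the libraries cannot be told apart.

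The libraries that stood apart differed in several of the factors. *Neurog2*, *Tfap2a*, *Tfap2b* and *St18* were each lower in control replicate 2 than in replicate 1, and lower in Sox11 replicate 2 than in replicate 1. Outside the list, and chosen after their values were seen, *Gad1*, an enzyme of GABA synthesis in amacrine cells, stood at 36.2 and 2.83 CPM in control, 17.5 and 2.23 with Sox11 and 19.7 and 17.2 with Sox11K91A. The GABA transporter *Slc32a1* stood at 14.6 and 1.22 CPM, 7.68 and 2.59, and 9.09 and 8.57, and *Sox2* at 7.66 and 0.620, 11.0 and 2.59, and 11.6 and 7.17 CPM. All 7 amacrine cell markers were detected, and their summed level was 49.5 to 150 TPM in control, 35.6 to 69.7 with Sox11 and 64.2 to 66.4 with Sox11K91A. The list moved both ways, since with each virus 1 marker was called higher, the choline transporter *Slc5a7* (log2 fold changes 1.85 and 1.67), 1 was called lower, the glycine transporter *Slc6a9* (-2.14 and -1.75), and 5 were not called. Whether the share of amacrine cells has a part in the values of the amacrine cell factors was not tested.

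**Figure D5:**
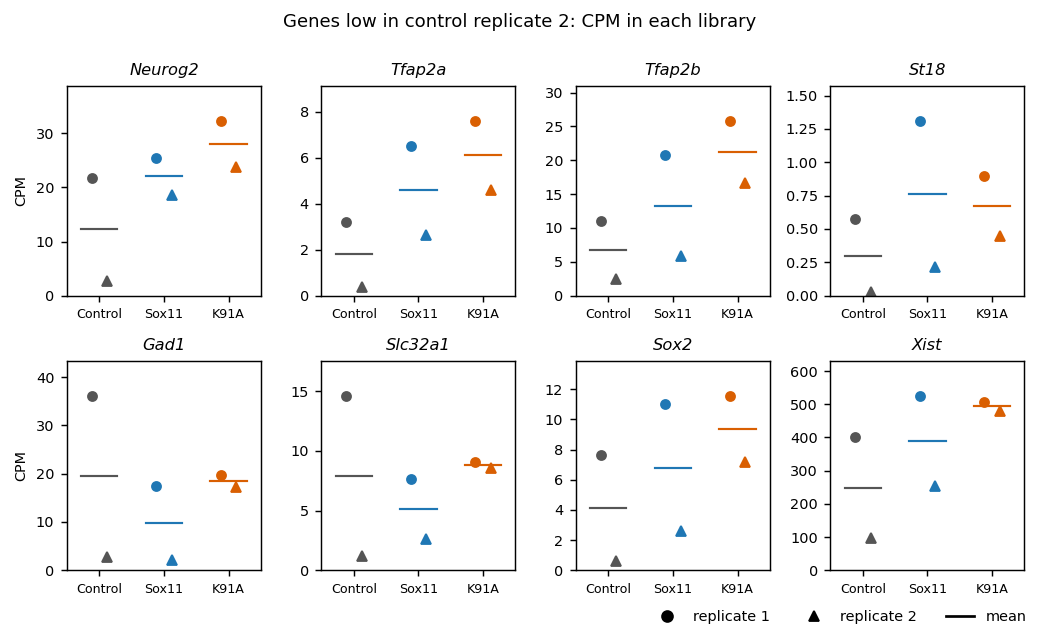
CPM of 4 members, 3 other genes and *Xist* in each library (circles for replicate 1, triangles for replicate 2) with group means as lines. The triangles of control and Sox11 lie below the circles in every panel.

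Without control replicate 2 and Sox11 replicate 2 together, 6 factors were called with Sox11, namely *Bcl11a*, *Myt1*, *Nhlh2* and *Insm1* higher and *Irx6* and *Barhl2* lower. *Prox1*, *Onecut2*, *Tfap2d*, *Bcl11b*, *Satb1* and *Myt1l* kept a positive log2 fold change, between 0.42 for *Myt1l* and 1.98 for *Prox1*, but were not called. With Sox11K91A, *Tfap2d* and *Bcl11b* were not called either, at log2 fold changes of 0.90 and 0.85. Single libraries decided the calls as well, over all genes and not only among these factors. Such fits can leave a group with a single library, so log2 fold changes are given in place of calls. Leaving out any 1 library, those of *Nhlh2* ranged from 1.57 to 1.76 with Sox11 and from 1.31 to 1.75 with Sox11K91A. Those of *Prox1* ranged from 2.08 to 3.47 and from 1.96 to 3.35, and those of *Bcl11b* from 0.98 to 1.99 and from 0.84 to 1.86. The direction of every call in the full data was the same in each of these fits.

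Markers of other cells moved as follows. Summed markers of Müller glia and progenitors, all 8 detected, were at 282 to 283.6 TPM in control, 518.8 to 523.2 with Sox11 and 498.5 to 500.7 with Sox11K91A, of which *Glul*, which encodes glutamine synthetase, rose from 101 ± 5.48 CPM (SD, n = 2) in control to 283.7 ± 18.1 and 288.6 ± 30.5. The sum follows *Glul*: of 7 markers tested it was the 1 called, 4 others were below both controls in every library with Sox11 or Sox11K91A without being called, and the median log2 fold change of the 7 was -1.66 with Sox11 and -1.10 with Sox11K91A. Summed markers of dividing cells were at 3.66 to 6.32 TPM, of astrocytes and oligodendrocytes at 1.77 to 5.53, of microglia at 0.450 to 3.88 and of vascular cells and fibroblasts at 2.69 to 6.55 over all libraries. *Gfap*, *Olig2*, *Cx3cr1*, *P2ry12*, *Tyrobp* and *Cdh5* had at most 3 counts in every library. The part of other cells in the changes of the factors was not tested.

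A list of other retinal and neuronal transcription factors was read from the same fit. Of 71 genes measured, 54 were tested. With Sox11, 13 were called (24.1%), 8 higher and 5 lower, and with Sox11K91A 9 (16.7%), 6 higher and 3 lower. Of all genes tested, 20.1% were called with Sox11 (9.96% higher, 10.2% lower) and 10.6% with Sox11K91A (5.81% higher, 4.81% lower). Among called genes of the list, the largest rises in both comparisons were those of *Prdm8*, *Nr4a2* and *Foxp4*. *Prdm8*, a repressor of the PR domain family, stood at 0.358 and 0.363 CPM in control, 1.82 and 2.53 with Sox11 and 3.51 and 2.13 with Sox11K91A (log2 fold changes 2.54 and 2.88, limma-voom adjusted p = 0.028 and 0.029). *Nr4a2*, an orphan nuclear receptor of dopamine neurons, stood at 5.44 and 3.19 CPM, 11.3 and 13.9, and 13.6 and 11.2 (1.64 and 1.61, limma-voom adjusted p = 0.019 and 0.028). *Foxp4*, a relative of *Foxp1* and *Foxp2*, rose by 0.99 and 1.17 on the log2 scale (limma-voom adjusted p = 0.016 and 0.019).

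The largest called fall was that of *Thrb*, a thyroid hormone receptor of cone photoreceptors, which stood at 13.0 and 14.8 CPM in control, 3.49 and 1.66 with Sox11 and 1.80 and 3.09 with Sox11K91A (log2 fold changes -2.56 and -2.57, limma-voom adjusted p = 0.013 and 0.019). *Nr2f6* fell with both viruses (-0.88 and -0.68, limma-voom adjusted p = 0.013 and 0.031). *Ebf4*, a helix-loop-helix factor, fell with Sox11 (-0.93, limma-voom adjusted p = 0.034) and was not called with Sox11K91A (-0.39, limma-voom adjusted p = 0.26). *Sox12*, a SoxC relative of *Sox11*, stood at 186 and 162 CPM in control, 102 and 90.3 with Sox11 and 103 and 111 with Sox11K91A, and was among the largest called falls with Sox11K91A (-0.70, limma-voom adjusted p = 0.033).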

How the data were processed

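RNA-seq tables of 6 libraries were analyzed. The authors aligned reads to mm10 with STAR and deposited RSEM expected counts and TPM per gene, 1 table per library, without pooling replicates. Versions, annotation and use of strand are not given in the sources used here. Of 43346 Ensembl genes, 98.0% had a symbol in GENCODE M21 (GRCm38), which also gave coordinates. Factors were matched by symbol. Expected counts were rounded, filtered with filterByExpr on the 3 groups, scaled by TMM (factors 0.985 to 1.04) and tested with limma-voom (limma 3.58.1, edgeR 4.0.16, R 4.3.3), after the methods of the study, with all 6 libraries in 1 fit without covariates. P-values are two-sided and adjusted by Benjamini-Hochberg over all 15747 genes. Errors on CPM are SD over 2 replicates, and the floor of 3 counts covers counting error only.

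The members, their role groups and all other lists were chosen with earlier results of these data known. Values in every library were given for each called member, for the member with the highest mean TPM in each role group, and for members with an absolute log2 fold change of 1 or more that were not called. Of the other transcription factors, the 3 largest called rises and falls per virus were named. The motif letters, and *Gad1*, *Slc32a1* and *Sox2* as examples, were chosen after values were seen. Other members are given by range. Alternatives included the edgeR quasi-likelihood test and DESeq2 (version 1.42.0), other scalings and filters, a replicate block, log2(TPM + 1) and leaving out libraries. Several genes share exonic bases with another gene, such as *Tfap2d* (8.8%, *Gm15825*), *Myt1l* (4.5%, *Gm20208*), *Irx6* (4.5%, *Gm45505*) and *Rax* (27.4%, *Raxos1*), all on the other strand, and such reads cannot be told apart without strand.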

Additional observations from a re-analysis of the deposited data

How the results depend on the processing

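Log2 fold changes of the members picked by rule for values in every library were recomputed in the alternatives. Those that changed only the threshold (FDR alone and a fold above 2) were left out here. Of these 1250 values, 1092 kept their direction and their side of the threshold, 97 fell below it, 13 passed it and 48 changed sign. Values not called in the full data, all those between the viruses among them, could not fall below it. The 1092 therefore do not measure how stable the calls were. The counts that follow are over all 22 alternatives, FDR alone and a fold above 2 among them. FDR alone reused the full fit, so every call of the full data passed it by construction. *Nhlh2*, *Insm1*, *Myt1* and *Irx6* were called with Sox11 in 21 of the 22 alternatives, *Bcl11a* in 20, *Prox1* in 19 and *Myt1l* in 11. With Sox11K91A, *Nhlh2*, *Prox1* and *Bcl11a* were called in 20, and *Tfap2d*, *Satb1* and *Bcl11b* in 10. With 2 libraries a group, counts of calls moved widely, and the cause was not tested.

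Of the factors, 11 were called with Sox11, 5 with sample quality weights, 6 without control replicate 2 and Sox11 replicate 2 together, and 0 to 12 leaving out 1 library. With Sox11K91A 10 were called, 6 with quality weights, 6 with log2(TPM + 1), 6 with log2(TPM + 0.1) and 0 to 12 leaving out 1 library. Of all genes, 3171 were called with Sox11 (1568 higher, 1603 lower), 979 with quality weights, 1637 with only the 2 groups in the fit, 1630 without both libraries, 2107 with log2(TPM + 0.1) (1287 higher, 820 lower), 1853 at a fold above 2 and 0 to 3742 leaving out 1 library. With Sox11K91A, 1672 genes were called, 3144 with DESeq2, 2894 with a block for the 2 libraries apart, 3871 without them, 936 with log2(TPM + 1), 896 with log2(TPM + 0.1), 1068 at a fold above 2 and 0 to 2529 leaving out 1 library. Between the viruses 0 genes were called by limma-voom, which gave 108 at an unadjusted p under 0.05, 0 by edgeR and 2 by DESeq2.

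With 2 libraries a group, whether the replicate numbers pair the libraries could not be decided. The correlations of same-numbered deviations were 0.259 for control and Sox11, -0.045 for control and Sox11K91A and -0.282 for Sox11 and Sox11K91A. With a replicate block, 10 factors were called with each virus, and 2679 genes with Sox11, 1402 with Sox11K91A and 0 between the viruses. With the numbers of the Sox11K91A libraries exchanged, a pairing chosen after seeing the data, 12 and 11 factors and 2753 genes with Sox11K91A were called.

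Many changes of sign fell on values near 0 or on low genes, with *Neurog2* and *Tfap2b*, which rest on control replicate 2, as exceptions. Without both libraries, log2 fold changes with Sox11 became -0.11 for *Pax6* and -0.25 for *Nr2f1*, and those with Sox11K91A 0.089 for *Crx* and -0.14 for *Pax6*. Between the viruses they became 0.0198 for *Insm1*, 0.031 for *Myt1*, 0.0271 for *Tfap2d*, 0.15 for *Onecut2*, 0.17 for *Bcl11a* and 0.00 for *Bcl11b*. With the block for these libraries they became 0.165 for *Crx* and -0.0626 for *Pax6* with Sox11K91A, and -0.0499 for *Myt1l*, 0.0234 for *Onecut2* and 0.0293 for *Bcl11a* between the viruses. *Nr2f1* with Sox11 became -0.0074 by library size alone. On log2(TPM + 1) and log2(TPM + 0.1), values with Sox11K91A became 0.0256 and 0.0258 for *Vax2* and 0.0953 and 0.0979 for *Nr2f1*, and *Myt1l* between the viruses -0.0356 and -0.0361. Leaving out 1 library, values with Sox11 ranged from -1.05 to 1.17 for *Crx*, -0.21 to 0.27 for *Pax6*, -0.18 to 0.20 for *Nr2f1*, -0.0145 to 2.99 for *Neurog2*, -0.20 to 3.73 for *St18* and -0.0832 to 2.11 for *Tfap2b*. With Sox11K91A they ranged from -1.88 to 0.087 for *Crx*, -0.14 to 0.34 for *Pax6* and -0.0797 to 0.0144 for *Vax2*. Between the viruses they ranged from -0.35 to 0.0852 for *Nhlh2*, -0.19 to 0.0217 for *Insm1*, -0.37 to 0.0329 for *Myt1*, -0.0512 to 0.0562 for *Myt1l*, -0.45 to 0.0839 for *Tfap2d*, -0.47 to 0.21 for *Prox1*, -0.76 to 0.15 for *Onecut2*, -0.59 to 0.17 for *Bcl11a* and -0.34 to 0.0707 for *Bcl11b*.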
